A study of Homo sapiens with 4 samples.

Results

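The genes described here are 10 members of the S100 family, S100P, S100A10, S100A6, S100A11, S100A13, S100A14, S100A16, S100A4, S100A2 and S100A9, out of 25343 genes in the deposited tables. They were selected on the measured LNCaP ratios of S100P, which was higher, and S100A10, which was lower, in the MAOA knockdown library of that line, with the other 8 listed around them as family members. The LNCaP ratios of these genes are therefore given as a description and are not tested. RNA sequencing covered 4 libraries in 4 groups of 1 library each. C4-2B ENZR shMAOA carried a hairpin targeting the coding sequence of MAOA, the gene of monoamine oxidase A, and C4-2B ENZR shCon a non-targeting hairpin; both were cells of an enzalutamide-resistant human prostate cancer line cultured with 20 µM enzalutamide (an antiandrogen) and 10% fetal bovine serum. LNCaP shMAOA and LNCaP shCon carried the same 2 kinds of hairpin in an androgen-responsive human prostate cancer line, cultured in the same serum without the drug. All 4 were lentiviral, antibiotic-selected stable cultures. Whether the hairpin sequence was shared by the lines is not stated in the labels. In the names used here a lane-like suffix appears only for the C4-2B ENZR libraries, and no batch is named. Line and drug cannot be told apart, nor can any difference in library batch be told from them.

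S100 proteins are small calcium-binding proteins that usually work as dimers. Each subunit has a pair of EF-hands, the helix-loop-helix motif that holds calcium, and calcium binding opens a surface that docks partner proteins such as annexins, ezrin and nonmuscle myosin. Several members are also secreted and act on cell-surface receptors, among them AGER and TLR4. Most of the family lies in a cluster on the long arm of chromosome 1, in the epidermal differentiation region, whereas S100P lies on chromosome 4. In epithelial cancers S100P, S100A4 and S100A14 have been studied for their part in cell migration and spread.

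The libraries held 23679869 recovered reads for C4-2B ENZR shMAOA, 23479051 for C4-2B ENZR shCon, 52012696 for LNCaP shMAOA and 52550452 for LNCaP shCon. MAOA was at 219 CPM (library-scaled read counts, as the authors deposited them) in the shMAOA library and 327 CPM in the shCon library of C4-2B ENZR, 66.8% of control, and at 140 CPM and 445 CPM in LNCaP, 31.3% of control. All of 9 luminal prostate markers were detected in every library, although KLK3 had only 6.34 and 3.72 CPM in shMAOA and shCon cells of C4-2B ENZR, beside 2716 and 2391 CPM in those of LNCaP. With 1 library per group no p-value exists within a line. The 95% intervals given for ratios are exact conditional (Clopper-Pearson) intervals for counting error only, and they say nothing about how separate cultures would differ.

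All 10 members had reads in C4-2B ENZR shMAOA and in both LNCaP libraries, and 9 of 10 in C4-2B ENZR shCon, where S100A6 had none. Of the 10, 6 averaged 1 CPM or more over the libraries of C4-2B ENZR and 6 over those of LNCaP. The family was dominated by S100A11, which took 61.4% and 61.9% of the members' reads in shMAOA and shCon cells of C4-2B ENZR, and 51.9% and 74.2% of them in LNCaP. Summed over the members the level was 132 CPM in shMAOA and 154 CPM in shCon cells of C4-2B ENZR, and 213 CPM and 210 CPM in LNCaP. Without S100A11 the sum in LNCaP was 102 CPM in shMAOA cells and 54.1 CPM in shCon cells. S100P alone differed by more than this sum, at 68.4 and 11.1 CPM, while S100A10 went the other way, at 5.79 and 14.8 CPM.

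**Figure D1:**
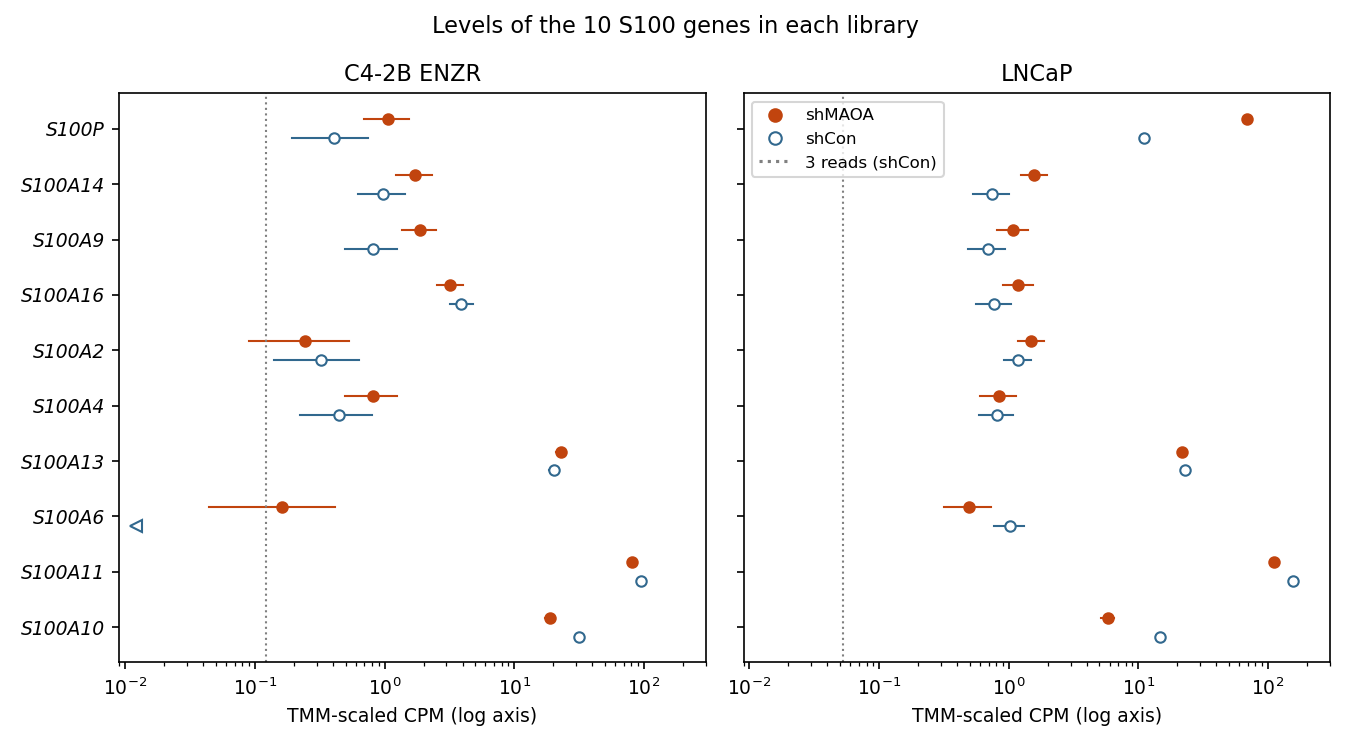
Level of each of the 10 S100 genes (rows) in C4-2B ENZR (left) and LNCaP (right), in TMM-scaled CPM on a log axis; filled points are shMAOA and open points shCon libraries, lines are exact Poisson 95% intervals for counting error, and the open triangle marks 0 reads. S100A11 is the highest member in every library, and S100P is at 68.4 CPM in LNCaP shMAOA but at 1.06 CPM in C4-2B ENZR shMAOA.

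Levels of different members can be compared only per length. Divided by the median length of the coding transcripts in GENCODE 29, S100A11 was highest in every library, at 137, 160, 186 and 262 CPM per kb in C4-2B ENZR shMAOA, C4-2B ENZR shCon, LNCaP shMAOA and LNCaP shCon. S100A13 and S100A10 came next in both C4-2B ENZR libraries, with S100A13 at 40.9 CPM per kb in shMAOA and 36.0 in shCon cells, and S100A10 at 20.9 and 34.8 CPM per kb. In LNCaP shMAOA the second place was taken by S100P, at 53.5 CPM per kb against 8.67 in LNCaP shCon. These S100P values rest on 1 coding transcript of 1279 nt, in a gene that GENCODE 29 starts at base 6693069 of chromosome 4. The RefSeq start used for the promoter below lies downstream, just after base 6693877. A shorter transcript would give S100P more CPM per kb, so its values per kb and its place among the members are uncertain. The other 6 members stayed at or below 3.78 CPM per kb in every library, a range in which their order is set by few reads.

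For 5 members the counting interval excluded equality in the same direction in both lines with the deposited scaling: S100P, S100A14 and S100A9 were higher in the shMAOA library and S100A10 and S100A11 lower. Among 18750 genes with a read in both tables, this held for 12.3% in the upward and 6.87% in the downward direction. The members' counts are therefore given as values only. S100P and S100A10 were chosen for their LNCaP ratios, so their direction in LNCaP was fixed by that choice. The 250 bases before the start of these 5 genes come from RefSeq on GRCh38.p14, which is not the authors' build, hg19. They are shown because the genes share a direction in both lines with the deposited scaling. The LNCaP interval of S100A9 included equality under other scalings, as given below. Capitals mark matches, on either strand, to any of 6 motifs: the TATA box TATAAA, the GC box GGGCGG, the half-site AGAACA of the androgen and glucocorticoid receptors, the AP-1 site TGACTCA, the cAMP response element TGACGTCA and the E-box CACGTG.
S100P, chr4:6693628-6693877, plus strand: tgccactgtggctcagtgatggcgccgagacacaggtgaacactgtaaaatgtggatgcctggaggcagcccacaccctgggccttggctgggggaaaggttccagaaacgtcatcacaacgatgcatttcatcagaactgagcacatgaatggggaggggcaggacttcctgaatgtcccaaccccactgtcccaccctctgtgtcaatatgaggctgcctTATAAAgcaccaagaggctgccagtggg
S100A14, chr1:153616326-153616575, minus strand: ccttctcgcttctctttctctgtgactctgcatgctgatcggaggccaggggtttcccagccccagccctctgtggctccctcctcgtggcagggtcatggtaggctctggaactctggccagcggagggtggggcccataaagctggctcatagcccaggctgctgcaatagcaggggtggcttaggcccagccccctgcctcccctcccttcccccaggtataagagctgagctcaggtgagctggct
S100A9, chr1:153357604-153357853, plus strand: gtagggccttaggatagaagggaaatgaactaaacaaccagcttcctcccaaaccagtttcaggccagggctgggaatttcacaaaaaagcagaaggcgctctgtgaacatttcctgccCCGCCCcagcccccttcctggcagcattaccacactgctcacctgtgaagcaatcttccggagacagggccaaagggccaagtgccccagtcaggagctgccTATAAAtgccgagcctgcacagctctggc
S100A10, chr1:151993860-151994109, minus strand: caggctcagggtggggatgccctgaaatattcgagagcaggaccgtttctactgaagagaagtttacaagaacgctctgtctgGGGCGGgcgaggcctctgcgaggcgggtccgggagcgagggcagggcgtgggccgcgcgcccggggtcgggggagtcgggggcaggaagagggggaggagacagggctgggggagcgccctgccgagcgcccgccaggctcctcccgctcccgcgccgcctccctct
S100A11, chr1:152037005-152037254, minus strand: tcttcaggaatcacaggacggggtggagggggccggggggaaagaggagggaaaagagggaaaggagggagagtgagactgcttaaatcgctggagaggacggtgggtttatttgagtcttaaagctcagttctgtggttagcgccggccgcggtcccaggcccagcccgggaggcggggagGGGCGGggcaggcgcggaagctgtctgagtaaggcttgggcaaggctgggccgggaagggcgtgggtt

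The windows of S100P and S100A9 hold TATAAA at 28 and 29 bases before the start, and 10.7% of 35116 RefSeq promoter windows of this length hold it. The windows of S100A9, S100A10 and S100A11 hold GGGCGG, as do 42.6% of all windows. GC content was 55.6% for S100P and S100A9, 63.2% for S100A14, 71.2% for S100A10 and 63.6% for S100A11, against a median of 58% over all windows. None of the 5 windows holds the receptor half-site (12.4% of all windows do), the AP-1 site (4.2%), the cAMP response element (1.65%) or the E-box (6.34%), and the S100A14 window holds none of the 6 motifs. These are letters in a window and not measured binding. Windows of the other members are not shown, so no motif is tied to a direction.

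S100P, named for its discovery in placenta and known to bind ezrin, was the member with the largest ratio in LNCaP. It was at 68.4 CPM (3344 reads) in LNCaP shMAOA and 11.1 CPM (629 reads) in LNCaP shCon, a ratio of 6.18 with a counting interval of 5.67 to 6.73. In C4-2B ENZR it was at 1.06 CPM (26 reads) in shMAOA and 0.404 CPM (10 reads) in shCon cells, a ratio of 2.61 with an interval of 1.22 to 6.08. The direction was the same in both lines, but the C4-2B ENZR value rests on few reads and on a level that is low in both of its libraries. On the log2(CPM + 1) scale, which damps low genes, the ratios were 2.52 in LNCaP and 0.55 in C4-2B ENZR. The LNCaP ratio ranked 3 from the top of 13787 genes that averaged 1 CPM or more, which is the property it was chosen for. No transcript of another gene in GENCODE 29 shares a 50-mer with S100P (0% of 1230 50-mers), so reads of this length were not open to splitting with a near-identical annotated gene.

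S100A14, a member found in epithelia, was also higher in both lines at a low level. It was at 1.71 CPM (42 reads) in shMAOA and 0.971 CPM (24 reads) in shCon cells of C4-2B ENZR, a ratio of 1.76 (interval 1.04 to 3.04). In LNCaP it was at 1.58 CPM (77 reads) in shMAOA and 0.740 CPM (42 reads) in shCon cells, a ratio of 2.13 (interval 1.44 to 3.18). It is the member besides S100P whose upward interval excluded equality in both lines under each of 4 scalings, which are the deposited one, recomputed TMM (trimmed mean of M-values), equal library sums and centring on the median gene; 7.35% of the 18750 genes did the same.

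S100A9, a subunit of the calprotectin dimer that neutrophils and monocytes carry, was at 1.87 CPM (46 reads) in C4-2B ENZR shMAOA and 0.809 CPM (20 reads) in C4-2B ENZR shCon, a ratio of 2.31 (interval 1.34 to 4.13). In LNCaP it was at 1.08 CPM (53 reads) in shMAOA and 0.687 CPM (39 reads) in shCon cells, a ratio of 1.58 whose interval of 1.02 to 2.45 came to include equality under the other 3 scalings. Its dimer partner S100A8 lay near the detection floor, with 0 reads in both libraries of C4-2B ENZR and 3 and 2 reads in shMAOA and shCon cells of LNCaP. The 5 myeloid and leukocyte markers summed to 5.29 and 5.34 CPM in shMAOA and shCon cells of C4-2B ENZR and to 5.38 and 3.45 CPM in those of LNCaP, most of it LYZ, while PTPRC stayed at or below 0.202 CPM in every library and was at 0 in LNCaP shCon. Their part in the S100A9 values was not tested.

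S100A10, also called p11, is the member whose EF-hands have lost calcium binding, and it is best known as the light chain of a tetramer with annexin A2. It was at 19.0 CPM (467 reads) in C4-2B ENZR shMAOA and 31.6 CPM (782 reads) in C4-2B ENZR shCon, a ratio of 0.601 (interval 0.534 to 0.674). In LNCaP it was at 5.79 CPM (283 reads) in shMAOA and 14.8 CPM (839 reads) in shCon cells, a ratio of 0.392 (interval 0.341 to 0.449). On the log2(CPM + 1) scale these are -0.71 and -1.22. Its interval lay below equality in both lines under each of the 4 scalings, as for S100A11 and for 6.7% of the 18750 genes. Its LNCaP ratio, for which it was chosen, ranked 20 from the bottom of 13787 genes.

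S100A11, which binds annexin A1, was the most abundant member and also lower in the shMAOA libraries, by less. It was at 81.4 CPM (2001 reads) in shMAOA and 95.3 CPM (2357 reads) in shCon cells of C4-2B ENZR, a ratio of 0.854 (interval 0.804 to 0.906). In LNCaP it was at 110 CPM (5397 reads) in shMAOA and 156 CPM (8836 reads) in shCon cells, a ratio of 0.709 (interval 0.686 to 0.734). At these read numbers counting error is small, so the intervals are narrow and still leave out any spread between cultures. Of its 50-mers, 2.2% also occur in another annotated transcript.

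S100A13, which takes part in the release of fibroblast growth factor FGF1, was nearly level. It was at 23.02 CPM (566 reads) in shMAOA and 20.3 CPM (501 reads) in shCon cells of C4-2B ENZR, a ratio of 1.14 (interval 1.01 to 1.28), and equality was inside the interval once both libraries were set to equal sums. In LNCaP it was at 21.6 CPM (1054 reads) in shMAOA and 23.1 CPM (1309 reads) in shCon cells, a ratio of 0.935 (interval 0.862 to 1.02), and it was lower under the other 3 scalings. S100A13 shares 235 exonic bases with S100A1 on the other strand, and the sources used here do not state how the libraries treated strand, so reads from that stretch cannot be told apart. In addition, 42.4% of its 50-mers also occur in AL162258.1, a processed transcript on the same strand that shares 536 exonic bases with it, so the S100A13 values are uncertain. S100A1 had 13 reads in each library of C4-2B ENZR and 74 and 72 reads in shMAOA and shCon cells of LNCaP.

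The remaining 4 members were scarce. S100A6, or calcyclin, whose partner is the calcyclin-binding protein CACYBP, had 4 reads in C4-2B ENZR shMAOA and 0 in C4-2B ENZR shCon. Taking the floor of 3 reads for shCon gives a ratio of 1.34, but the counting interval reaches down to 0.664 and includes equality. In LNCaP it was at 0.491 CPM (24 reads) in shMAOA and 1.02 CPM (58 reads) in shCon cells, a ratio of 0.481 (interval 0.286 to 0.786). S100A16, another epithelial member, was at 3.21 CPM in shMAOA and 3.92 CPM in shCon cells of C4-2B ENZR (ratio 0.819, interval 0.601 to 1.11), and at 1.19 and 0.775 CPM in those of LNCaP (ratio 1.53, interval 1.02 to 2.32). The LNCaP interval of S100A16 included equality under the other 3 scalings.

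S100A4, or metastasin, which binds nonmuscle myosin, was at 0.813 CPM (20 reads) in shMAOA and 0.445 CPM (11 reads) in shCon cells of C4-2B ENZR, beside 0.839 and 0.811 CPM in shMAOA and shCon cells of LNCaP. S100A2, a member of basal epithelia, was at 0.244 CPM (6 reads) and 0.324 CPM (8 reads) in shMAOA and shCon cells of C4-2B ENZR, beside 1.49 and 1.18 CPM in those of LNCaP. The intervals of both genes included equality in each line, so no difference was detectable at this depth. For S100A2 in C4-2B ENZR the interval ran from a ratio of 0.216 to one of 2.48.

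**Figure D2:**
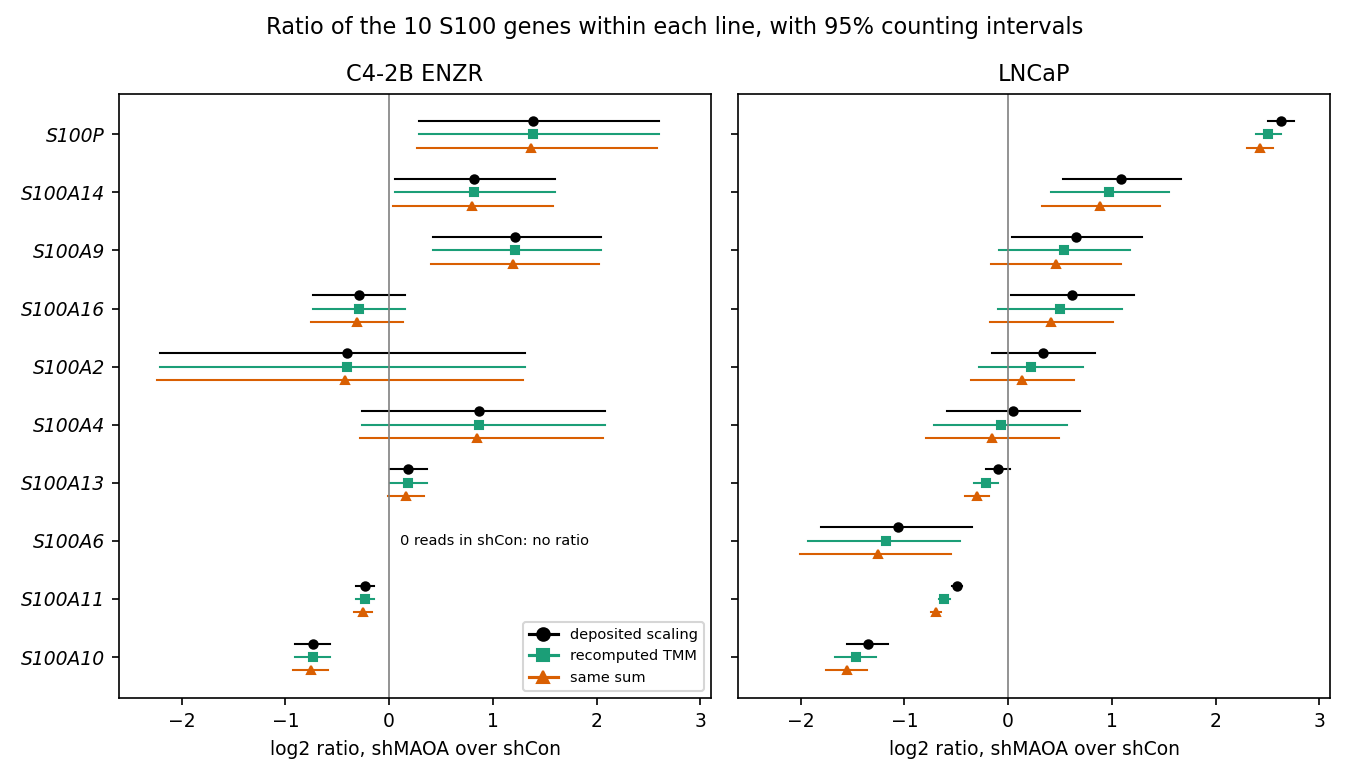
Log2 ratio of shMAOA over shCon CPM for the 10 S100 genes (rows) within C4-2B ENZR (left) and LNCaP (right), without a pseudocount; points are ratios, lines are 95% counting intervals, and colours give the deposited scaling, recomputed TMM and equal library sums. S100P and S100A14 lie to the right of 0 and S100A10 and S100A11 to the left in both lines under each scaling, while the LNCaP intervals of S100A9 and S100A16 include 0 once the scaling changes.

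Counted over all 10 members with the deposited scaling, the interval lay above equality for 4 and below it for 2 in C4-2B ENZR, where 16% of 19447 genes with a read were called in each direction. In LNCaP it lay above for 4 and below for 3 members, against 35.6% and 14.8% of 20083 genes with a read. Here and under the other scalings, the LNCaP counts include S100P (above) and S100A10 (below), which were chosen for their LNCaP ratios. The LNCaP background leans upward with the deposited scaling, since genes that averaged 10 CPM or more had a median log2 ratio of 0.13. With recomputed TMM, equal sums or centring, 2 members lay above equality and 4 below in LNCaP, where the shares of all genes with a read were 24.6% above and 23.9% below with recomputed TMM, 17.8% and 31.7% with equal sums, and 23.4% and 25.3% with centring. In C4-2B ENZR 3 members lay above and 2 below with equal sums (14.3% and 18.3% of all genes), and 4 and 2 with centring (16.7% and 15.4%), while recomputed TMM left the counts and the shares as deposited. The 10 members had a median log2 ratio of 0.20 for C4-2B ENZR and 0.11 for LNCaP, beside 0.00 and 0.05 over all genes with a read. Over genes that averaged 1 CPM or more in the line, the median was 0.00 for C4-2B ENZR and 0.11 for LNCaP. The members' median in LNCaP was thus level with that of such genes. By a 2-fold difference on the log2(CPM + 1) scale and an average of 1 CPM or more, no member was called in C4-2B ENZR (0.29% of 13810 genes were higher and 0.152% lower). In LNCaP S100P and S100A10 were called, the genes around which the set was built (0.58% of 13787 genes were higher and 0.254% lower), so nothing is read from that count.

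**Figure D3:**
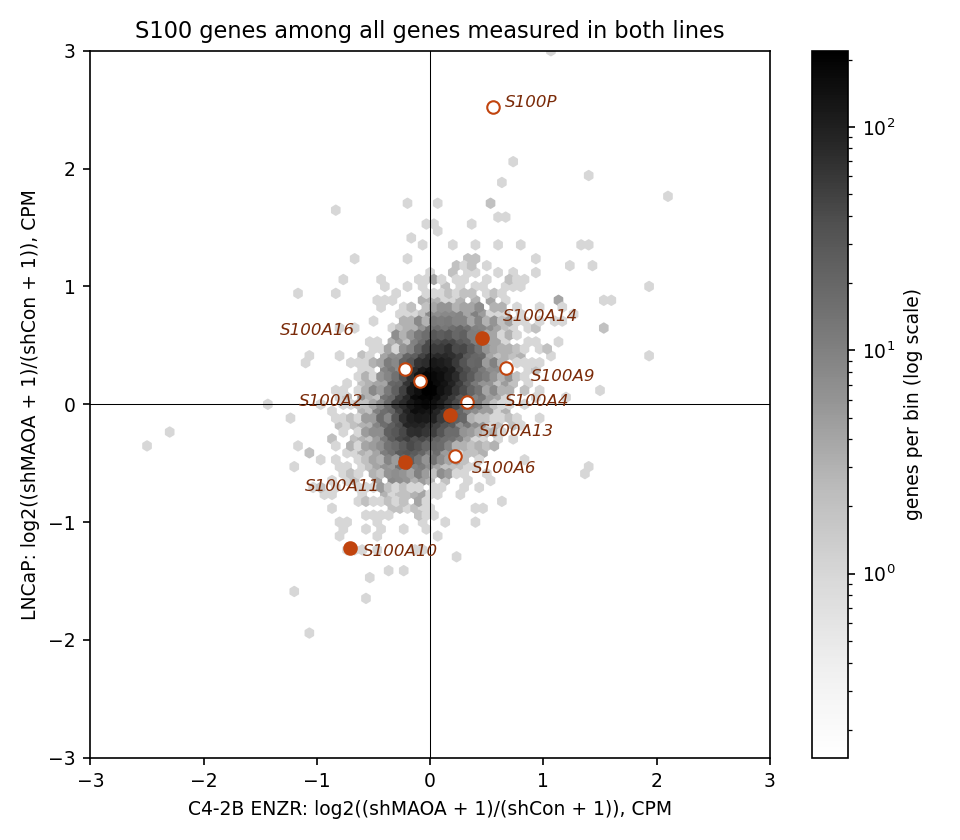
Within-line log2((shMAOA + 1)/(shCon + 1)) of CPM for C4-2B ENZR (x axis) against LNCaP (y axis); grey bins count the 13114 genes that averaged 1 CPM or more in each table, with axes cut at 3 on the log2 scale, and orange points are the S100 genes, filled where they pass that filter. S100P (0.55 and 2.52) and S100A10 (-0.71 and -1.22) lie outside the dense part of the cloud, and the other 8 members lie within it or at its edge.

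Of the 10 members, S100A10, S100A11, S100A13 and S100A14 averaged 1 CPM or more in each table. The genes most like S100A10, by Euclidean distance in the plane of the within-line log2 ratios over 2 lines and 13113 other genes, were PCNA-AS1 (distance 0.06), EPDR1 (0.10) and RGPD6 (0.16). EPDR1, the gene of ependymin-related protein 1, was at 5.94 CPM in shMAOA and 9.58 CPM in shCon cells of C4-2B ENZR, beside 1.86 and 5.59 CPM in those of LNCaP. PCNA-AS1 lies antisense to PCNA and RGPD6 belongs to a family of near-identical copies, so the values of both are uncertain. No such neighbours are given for S100P, since it averaged 0.731 CPM in C4-2B ENZR and missed that filter.

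The control libraries of the lines also differed in S100 levels, with the widest ratio for S100P among members that had reads in both. Because the tables were normalized separately, their control libraries are set side by side here in unscaled CPM, relative to the recovered read total of each library. LNCaP shCon had 11.97 unscaled CPM of S100P and C4-2B ENZR shCon had 0.426, which is 28.1 times as much in LNCaP (counting interval 15.2 to 58.9). S100A6 had 0 reads in C4-2B ENZR shCon and 1.1 unscaled CPM in LNCaP shCon. S100A2 was at 0.341 and 1.27 unscaled CPM, and S100A11 at 100.4 and 168, also lower in C4-2B ENZR shCon, and S100A13 at 21.3 and 24.9. S100A16 was higher in C4-2B ENZR shCon, at 4.13 against 0.837 unscaled CPM in LNCaP shCon (ratio 4.93, interval 3.42 to 7.22), and so was S100A10, at 33.3 against 15.97 (ratio 2.09, interval 1.89 to 2.3). For S100A4, S100A9 and S100A14 the interval of this ratio included equality. These are 2 libraries that differ in line and drug together, and perhaps in batch, and no test of the lines is possible.

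The other 11 S100 genes in the tables were at or near 0. S100A1, a member best known from heart muscle, was the only one of them with at least 10 reads in any library, at 0.529 and 0.526 CPM in shMAOA and shCon cells of C4-2B ENZR, beside 1.51 and 1.27 CPM in those of LNCaP. S100A7, S100A7A, S100A7L2, S100A12, S100B and S100Z had 0 reads in all 4 libraries, which allows up to 0.122 and 0.121 CPM in shMAOA and shCon cells of C4-2B ENZR and 0.0614 and 0.0529 CPM in those of LNCaP. None of the 11 and none of 7 fused-type S100 genes, the filaggrin relatives that lie in the same region, reached the filter for a test, which asks for an average of 1 CPM in each table. Among the fused-type genes HRNR, the gene of hornerin, passed it in LNCaP, at 7.25 CPM in shMAOA and 3.91 CPM in shCon cells, and missed it in C4-2B ENZR, at 0 and 0.0404 CPM (named after its values were seen).

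Genes that work with S100 proteins were tested over both lines with limma on the log2(CPM + 1) of the 4 libraries, with knockdown and line as terms and Benjamini-Hochberg adjustment over 13114 genes, of which 4.22% rose and 1.49% fell. That fit has 1 residual degree of freedom and leans on a spread pooled over genes, so its p-values chiefly reflect how large the mean ratio is, and nothing in the labels says that the libraries of a line came from separate cultures. The members are not given a p from it, because it contains the LNCaP contrast that chose them. Of 12 annexins, calcium-dependent membrane-binding partners of the family, 6 were tested and none passed, also in edgeR with recomputed TMM (median of the mean log2 ratios 0.13, beside 0.06 over all genes). ANXA7, with the highest CPM of the 6 on average over both lines, was at 164 and 189 CPM in shMAOA and shCon cells of C4-2B ENZR, beside 125 and 137 CPM in those of LNCaP (limma adjusted p = 0.517). ANXA2, the partner of S100A10, was picked out after its values were seen: it was at 0.122 and 0.121 CPM in shMAOA and shCon cells of C4-2B ENZR, beside 1.04 and 1.30 CPM in those of LNCaP. S100A10 was therefore measured in cells with little ANXA2 transcript. ANXA1, the partner of S100A11, stayed at or below 0.476 CPM in every library.

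Of 16 tested binding partners out of 18, 1 rose and none fell (median of the mean log2 ratios -0.01, beside 0.06 over all genes). TRPV6, a calcium channel of epithelia that binds the complex of S100A10 and annexin A2, rose (mean log2 0.47, SE 0.13, limma adjusted p = 0.0135). It was at 22.98 and 19.1 CPM in shMAOA and shCon cells of C4-2B ENZR and 87.3 and 54.3 CPM in those of LNCaP. It missed the threshold in edgeR (recomputed TMM, adjusted p = 0.0672) and in DESeq2 (adjusted p = 0.17). In limma it also missed it with centring (adjusted p = 0.068) and with equal library sums (adjusted p = 0.057). MYH9, the nonmuscle myosin heavy chain bound by S100A4, had the highest CPM among the tested partners, without regard to length, and did not pass (limma adjusted p = 0.836). CACYBP had 147 and 173 CPM in shMAOA and shCon cells of C4-2B ENZR and 61.2 and 82.3 CPM in those of LNCaP (limma adjusted p = 0.0932). S100PBP, the gene of an S100P-binding protein, was at 36.6 and 36.8 CPM in shMAOA and shCon cells of C4-2B ENZR, beside 43.3 and 28.8 CPM in those of LNCaP (limma adjusted p = 0.216). With equal library sums none of the 16 rose and 2 fell, CACYBP (limma adjusted p = 0.00574) and TPM1, a tropomyosin gene (limma adjusted p = 0.00898; 0.16 with the deposited scaling). With equal sums 351 of all 13114 genes rose and 653 fell, so nothing is read from the 2 falls. CACYBP, S100PBP and TPM1 were named after their values were seen.

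Of 7 tested genes out of 12 for extracellular receptors and the plasminogen system, which S100A10 serves at the cell surface, 1 rose and none fell. ALCAM, a cell adhesion molecule of the immunoglobulin family, rose, at 85.4 and 60.4 CPM in shMAOA and shCon cells of C4-2B ENZR, beside 171 and 106 CPM in those of LNCaP (mean log2 0.58, SE 0.12, limma adjusted p = 0.000294; edgeR adjusted p = 0.0157). BSG, the gene of basigin, a receptor of S100A9, had the highest CPM among them, without regard to length, and did not pass (limma adjusted p = 0.797). Of the other receptors, AGER had 3.86 and 4.08 CPM in shMAOA and shCon cells of C4-2B ENZR and 4.56 and 4.55 CPM in those of LNCaP, and TLR4 had 0.813 and 0.162 CPM in shMAOA and shCon cells of C4-2B ENZR and 0 CPM in both LNCaP libraries.

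Of 27 tested EF-hand genes outside the family, out of 30, 2 rose and none fell. NUCB2, the gene of nucleobindin-2, rose (mean log2 0.56, SE 0.13, limma adjusted p = 0.000955, edgeR adjusted p = 0.0222). So did CALU, the gene of the secretory-pathway protein calumenin (mean log2 0.48, SE 0.13, limma adjusted p = 0.0108). CALU did not pass in edgeR (adjusted p = 0.0716) or DESeq2 (adjusted p = 0.0793). In limma it passed with centring (adjusted p = 0.0479) and with equal library sums (adjusted p = 0.0127). CALM3, a calmodulin gene, had 327 and 311 CPM in shMAOA and shCon cells of C4-2B ENZR and 550 and 475 CPM in those of LNCaP (limma adjusted p = 0.655). THEM4, which lies next to S100A10 on chromosome 1, was at 35.7 and 34.98 CPM in shMAOA and shCon cells of C4-2B ENZR, beside 23.5 and 26.7 CPM in those of LNCaP (limma adjusted p = 0.834, named after its values were seen).

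**Figure D4:**
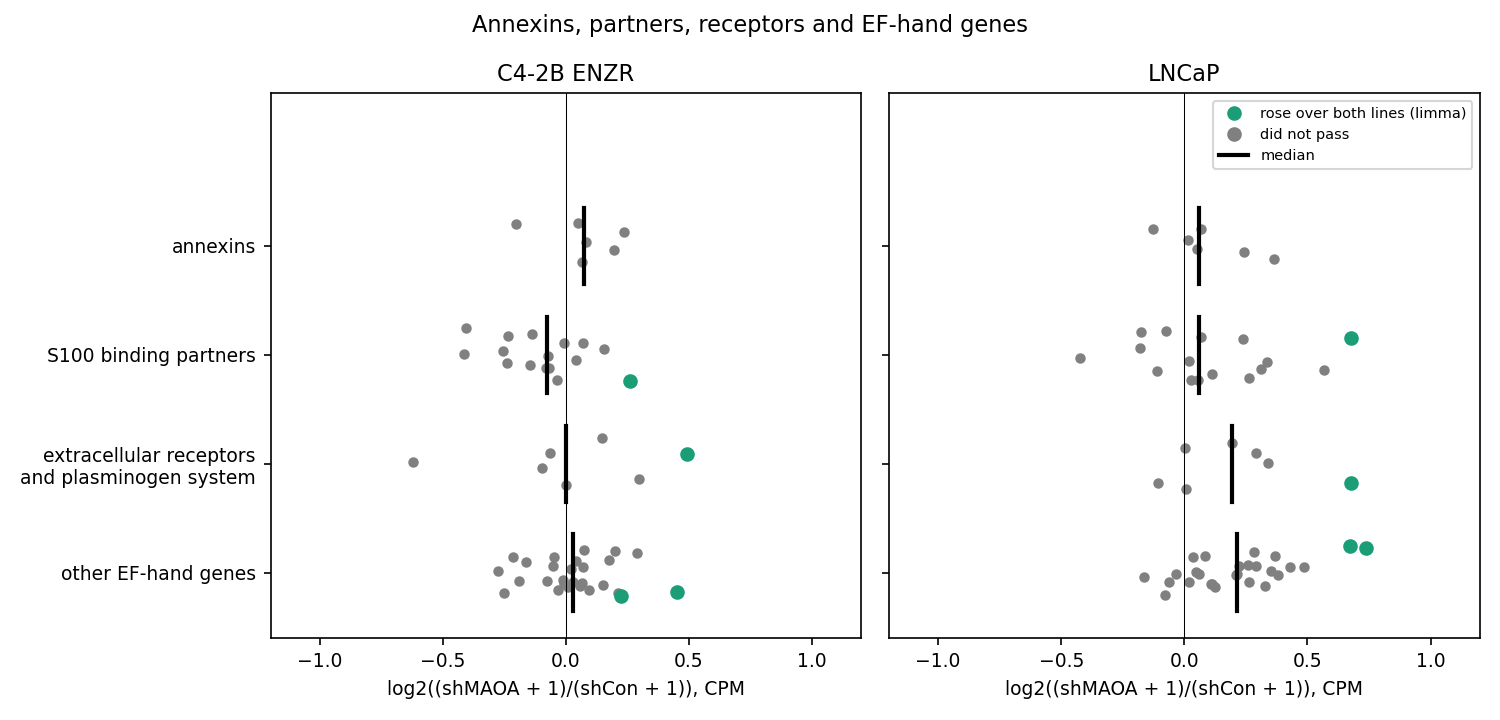
Log2((shMAOA + 1)/(shCon + 1)) of CPM within C4-2B ENZR (left) and LNCaP (right) for the tested genes of 4 lists around the S100 family; each point is a gene, green points rose over both lines in limma, grey points did not pass, and black bars are list medians. Most genes lie near 0, and the 4 green points are TRPV6, ALCAM, NUCB2 and CALU.

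Markers of other cell types were low or carried by single genes. The 5 basal markers summed to between 1.82 and 3.75 CPM per library and 5 neuroendocrine markers to between 1.5 and 2.8 CPM. The 5 stromal markers summed to 55.8 and 45.8 CPM in shMAOA and shCon cells of C4-2B ENZR and to 61.5 and 55.0 CPM in those of LNCaP, nearly all of it COL1A1, with COL1A2 at 0 in all 4 libraries. The 4 endothelial markers summed to 3.66 and 5.22 CPM in shMAOA and shCon cells of C4-2B ENZR and to 17.7 and 15.2 CPM in those of LNCaP, mostly VWF. Whether any of these bears on the S100 values was not tested. In bulk RNA, fewer cells carrying a transcript and less of it per cell cannot be told apart.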

How the data were processed

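Total RNA of 4 libraries was sequenced as single reads of 50 nt, per the labels' protocols. Per the submitters' processing notes, Bowtie2 2.1.0, RSEM 1.2.15 and edgeR were used with the hg19 build; annotation, filters and library strand are not stated in those sources. The authors deposited, for each line, a table of CPM with TMM scaling (trimmed mean of M-values). The deposited LNCaP values were handled as a signal on that scale, because the knockdown column sums to 1064500, more than CPM of a plain read total can. Dividing by the worth of 1 read gave whole numbers for 100% of values (tolerance 0.01 read), so reads were recovered.

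Ratios used log2(CPM + 1) within a table, with shMAOA over shCon. Counting intervals were computed with scipy 1.17.1 on the recovered reads at the deposited scaling, without a pseudocount, at 95%. Reads are not independent molecules, so intervals and floors (3 reads) cover counting error only. limma 3.58.1 (R 4.3.3, trended prior, 276 prior degrees of freedom) tested 13114 genes that averaged 1 CPM or more in each table, at an adjusted p of 0.05. With 1 residual degree of freedom, its p-values lean on a spread pooled over genes and do not measure how separate cultures would differ. The code was checked on simulated counts with the same change in both lines and no scaling shift. That check does not measure the error rate of the calls made here. edgeR 4.0.16 on the recovered reads called 303 genes and DESeq2 1.42.0 called 222. MAOA, the targeted gene, fell over both lines in limma (mean log2 -1.12, adjusted p = 4.4e-12) and in edgeR (adjusted p = 0.0139). It did not pass in DESeq2 (adjusted p = 0.364), so that fit can miss a known change.

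Members, lists and tests were chosen with earlier results of these data known. Named were the 10 members, MAOA, other S100 genes with at least 10 reads, per list the 2 largest changes that passed and the gene with the highest CPM, and the 3 genes most like S100A10; further genes are marked as chosen after their values were seen. All 150 list genes matched a symbol. Lengths, overlaps and shared 50-mers came from GENCODE 29 (GRCh38), promoters from RefSeq. Protein sequences were not used here, and counts over the genes that neighbour the S100 cluster are not reported here. Other scalings, pseudocounts, filters and tools were compared; the intervals under other scalings were added after seeing the data.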

Additional observations from a re-analysis of the deposited data

Results flagged for a closer look

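With the deposited scaling, MYH9, TPM3 and AHNAK of the genes named had opposite ratios in the lines. Their counting intervals excluded equality in both lines. The share of all genes opposite in this way was not computed, so these are given as values only. MYH9 had a log2 ratio of 0.0561 in LNCaP and -0.26 in C4-2B ENZR. TPM3, a tropomyosin gene beside the S100 cluster, had 0.0501 in LNCaP and -0.11 in C4-2B ENZR. AHNAK, the gene of a very large protein bound by the complex of S100A10 and annexin A2, had 0.31 in LNCaP and -0.41 in C4-2B ENZR. The difference between the lines was not tested for any of the 3 genes. The LNCaP ratios of MYH9 and TPM3 are smaller than the upward shift of 0.13 in the median gene of LNCaP. They fall below equality with recomputed TMM, equal sums or centring, so for MYH9 and TPM3 the opposition holds only with the deposited scaling. No S100 member was opposite in this way with the deposited scaling. With recomputed TMM, S100A13 was, at -0.21 in LNCaP and 0.18 in C4-2B ENZR on the log2 scale without a pseudocount. With centring it was too, at -0.23 and 0.19. Its C4-2B ENZR interval began just above equality, at 0.008 with recomputed TMM and 0.015 with centring.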

How the results depend on the processing

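The limma fit pairs the libraries of a line through its line term, and the labels give no replicate numbers to pair further. The 554 genes that rose and 195 that fell in that fit depended on the choices made. The counts were 14 and 6 without a filter on low values, 351 and 653 with equal library sums, 175 and 128 in edgeR with recomputed TMM, and 132 and 90 in DESeq2. After centring 231 rose, and without a line term 0 rose and 0 fell in limma (26 genes had an unadjusted p under 0.05). Pseudocounts of 0.1 and 5 and a filter at a mean CPM of 5 kept both counts within 1.5 times. BSG turned to -0.0142 with equal sums and did not pass there either.

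Relative to the deposited scaling, LNCaP log2 ratios shift by -0.12 with recomputed TMM, -0.20 with equal sums and -0.13 with centring, and those of C4-2B ENZR by at most 0.02 in size. No member whose interval excluded equality changed sign under the alternatives compared. The median of the members in LNCaP was -0.03 after centring and 0.01 with equal sums. In C4-2B ENZR it was 0.46 with a pseudocount of 0.1 and 0.07 with one of 5, since most members are low. S100P had 10 reads in C4-2B ENZR shCon, and depth limits every member other than S100A10, S100A11 and S100A13 there.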

Other observations

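AHNAK had 64.9 CPM in shMAOA and 86.9 CPM in shCon cells of C4-2B ENZR, and 502 and 405 CPM in those of LNCaP. It did not pass in limma (adjusted p = 0.884). It was picked out after its values were seen, and the tables were normalized separately, so the gap between the lines is given as values only.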
